A study of Homo sapiens with 16 samples.

Results

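Homologous recombination and the Fanconi anaemia pathway are described here through 40 genes, chosen by name as rows of a table of 35106 genes, and all 40 were tested in each comparison. Their RNA was measured by sequencing in 2 lines of human breast cancer. The first, MDA-MB-231, lacks oestrogen, progesterone and HER2 receptor expression and has mesenchymal features. It had 5 control libraries and 5 libraries of cells given 500 nM MitoQ for 48 h, all at passage 25. SKBR3 is a line that overexpresses the receptor ERBB2 (HER2), and had 3 control and 3 MitoQ libraries at the same dose and time, all at passage 10. MitoQ is a ubiquinone carried into mitochondria by a triphenylphosphonium cation. What the control cells received, and whether replicates were separate cultures, is not given by the sources used here, so p-values measure the spread between these libraries, which may be technical. Each arm is 1 established line at 1 dose and 1 time, and line and passage cannot be told apart.

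Homologous recombination repairs a broken chromosome by copying from the sister molecule. The MRE11-RAD50-NBN complex with RBBP8 (CtIP) trims the broken ends, the BRCA1-BARD1 heterodimer, PALB2 and BRCA2 bring the recombinase to the bared strand, and the recombinase paralogs and RAD54 proteins help it invade the intact copy. In the Fanconi pathway, named after an inherited anaemia with chromosome breakage, a core complex marks the FANCD2-FANCI pair with ubiquitin where 2 DNA strands are crosslinked, and nucleases then unhook the crosslink. Many of these genes are transcribed mainly as cells replicate their DNA, and inherited defects in several of them predispose to breast cancer.

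Levels are given as normalised CPM, estimated counts divided by the size of the library after 1 TMM normalisation over all 16 libraries. Changes are log2 fold changes ± SE, MitoQ against control unless stated, from edgeR's quasi-likelihood test in each line, with p-values adjusted by Benjamini-Hochberg over all genes tested. A gene was called where the adjusted p was under 0.05. Since RNA was taken from whole cultures, a change in the share of cells in a state and a change within each cell cannot be told apart.

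The libraries held 14723152 to 29294865 estimated counts, and the members took 0.204% to 0.297% of them. Marker genes of each line, summed, were at 6516 to 6988 CPM in the controls of MDA-MB-231 for that line's 5 markers, against 19.6 to 21.5 CPM in the SKBR3 controls. The 5 SKBR3 markers summed to 7505 to 8829 CPM in the SKBR3 controls and 238 to 274 CPM in the MDA-MB-231 controls. With MitoQ the MDA-MB-231 markers summed to 40.7 to 46.3 CPM in SKBR3, where the mean of CD44 went from 16.9 to 37.6 CPM, and their part in the SKBR3 results was not tested. Markers of leukocytes, endothelium and fibroblasts (10 genes) summed to 7.51 to 11.9 CPM over the MDA-MB-231 libraries and 29.9 to 40.9 CPM over the SKBR3 libraries. The largest part in SKBR3 was CDH5, with means of 17.5 CPM in controls and 23.0 CPM with MitoQ, against 0.119 CPM in MDA-MB-231 controls. Among the 5 MDA-MB-231 MitoQ libraries, replicate 2 had the highest level of 29 of the 40 members, and its members summed to 2825 CPM against 2484 to 2567 CPM in the other 4. SKBR3 control 3 lay nearer to the MitoQ libraries than the other controls did, at -7.18 on the first principal component of that line against -21.0 and -20.5, with MitoQ at 13.4 to 18.5. The part of these libraries in the results was not tested, and counts without them are given below.

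In MDA-MB-231, 17 of the 40 genes rose and 9 fell with MitoQ, in small steps. BRCA1, BRCA2, PALB2, RAD50, RBBP8 and ATM rose, while BARD1, RAD51AP1, RAD54L, RAD54B, TOPBP1 and CHEK1 fell. The changes ran from -0.53 (RAD51AP1) to 0.63 (RAD50), and 1 of the 26 called members (RAD50) passed 1.5-fold. In SKBR3, 6 genes rose (BRCA1, RAD54L, FANCA, BRCA2, MUS81, FANCG) and 3 fell (NBN, FANCM, ATM), from -0.32 to 0.33.

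These counts stand beside a broad change of the transcriptome. In MDA-MB-231, 65% of members were called, against 57.5% of all 15304 genes tested. The higher members were 42.5%, against 29.9% of all genes, and the lower ones 22.5%, against 27.6%. In SKBR3, 22.5% of members were called, against 28% of 15026 genes, with 15% higher against 13.8% and 7.5% lower against 14.1%. The members' median log2 fold change was 0.05 in MDA-MB-231, where all genes had 0.01, and 0.01 in SKBR3, where all genes had -0.00064. With plain library totals in place of TMM the MDA-MB-231 counts became 20 higher and 6 lower. Without MitoQ replicate 2 they were 17 higher and 10 lower, and in SKBR3 without control 3 they were 6 higher and 4 lower, and without control 2 or MitoQ 3 only 1 was lower.

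Groups without overlap are another way to read the same libraries. In MDA-MB-231 the 2 groups did not overlap in 16 members, 10 higher and 6 lower, while 44.1% of all genes did not overlap (21.2% higher, 22.9% lower). In SKBR3 they did not overlap in 14 members, 11 higher and 3 lower, against 40% of all genes (21.3% higher, 18.7% lower). All 9 called members of SKBR3 were among these 14, as were PALB2, RAD51D, XRCC2, BLM and TOPBP1, which did not pass the test.

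**Figure D1:**
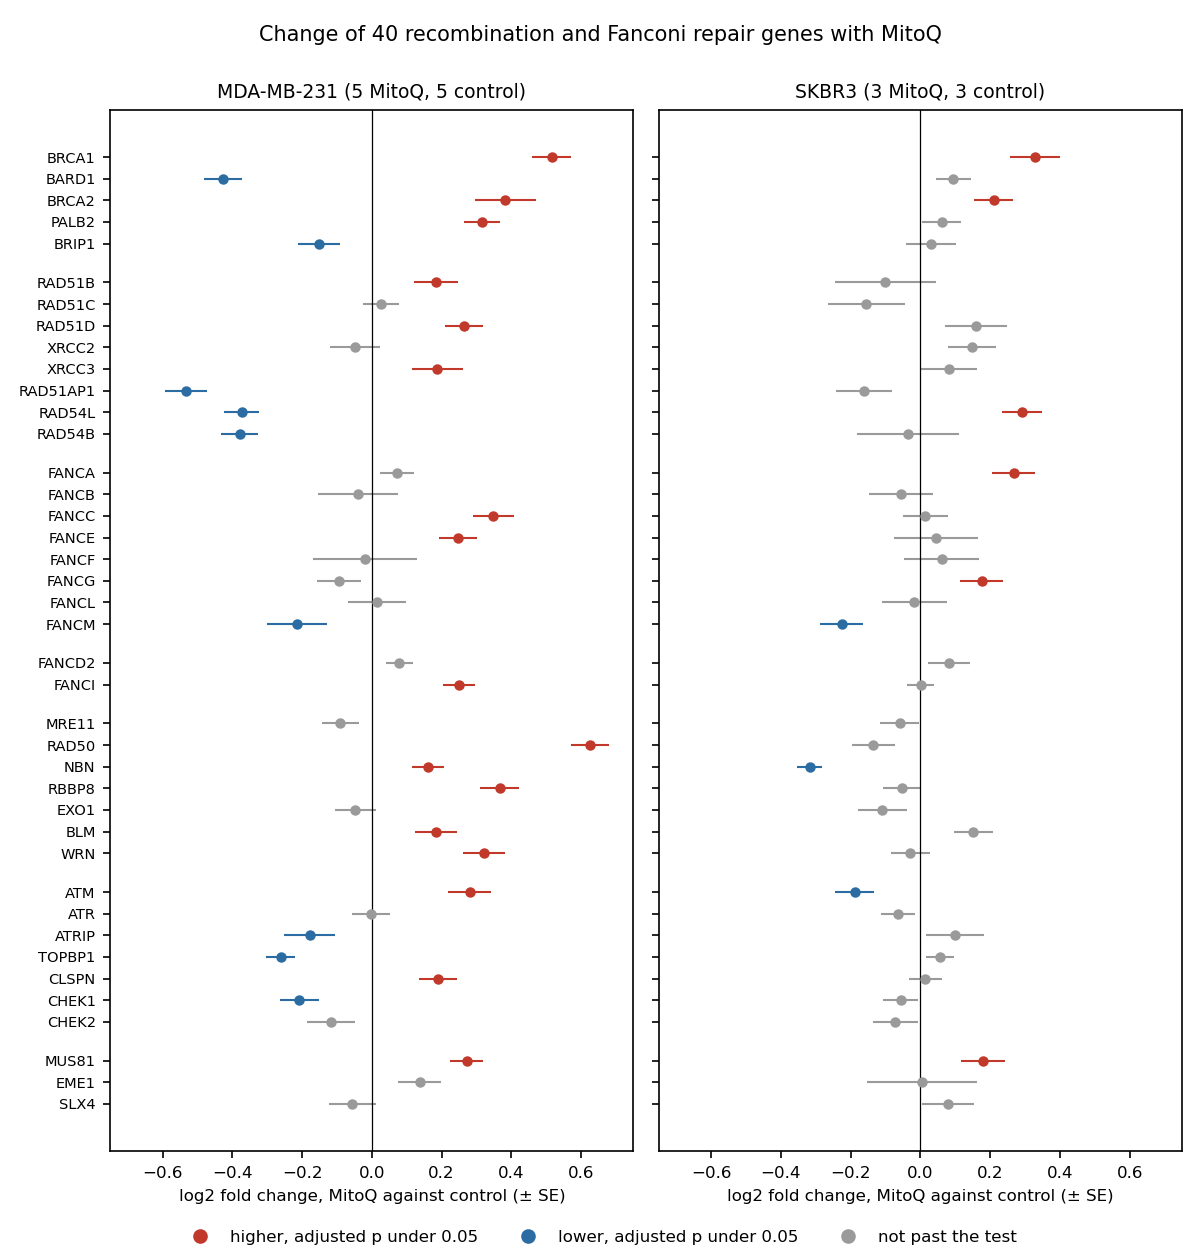
Change of each of the 40 genes with MitoQ in MDA-MB-231 (left, 5 against 5 libraries) and SKBR3 (right, 3 against 3), as log2 fold change on the horizontal axis with bars of 1 SE; genes are grouped by role, and colour marks those with an adjusted p under 0.05. BRCA1 and BARD1 lie on opposite sides of 0 in MDA-MB-231 (0.52 and -0.43). RAD54L, NBN and ATM are called in both lines on opposite sides of 0, and other genes change sides without a call in both.

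Promoter sequence is shown for 5 genes called in MDA-MB-231: RAD51AP1, RAD54L and BARD1 among those that fell, and RAD50 and FANCC among those that rose. They are examples, and BRCA1, BRCA2 and RBBP8 rose more than FANCC. Motif counts over all members with a promoter follow below. Each line gives the 250 bases before the gene's start in RefSeq (GRCh38.p14), 5′ to 3′ on the gene's strand, with matches to 3 promoter motifs in capitals. The positions are chr12:4538640-4538889, plus strand for RAD51AP1, chr1:46247438-46247687, plus strand for RAD54L, chr2:214809684-214809933, minus strand for BARD1, chr5:132556727-132556976, plus strand for RAD50 and chr9:95317710-95317959, minus strand for FANCC.
RAD51AP1: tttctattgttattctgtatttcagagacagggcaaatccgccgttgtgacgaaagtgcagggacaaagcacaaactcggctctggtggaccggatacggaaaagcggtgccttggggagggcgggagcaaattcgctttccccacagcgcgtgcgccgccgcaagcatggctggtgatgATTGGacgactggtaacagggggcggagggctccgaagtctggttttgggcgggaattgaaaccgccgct
RAD54L: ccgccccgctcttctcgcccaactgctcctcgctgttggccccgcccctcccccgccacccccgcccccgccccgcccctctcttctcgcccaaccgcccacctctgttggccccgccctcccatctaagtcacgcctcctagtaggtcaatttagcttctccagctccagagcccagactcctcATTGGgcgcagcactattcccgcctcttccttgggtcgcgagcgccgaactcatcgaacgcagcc
BARD1: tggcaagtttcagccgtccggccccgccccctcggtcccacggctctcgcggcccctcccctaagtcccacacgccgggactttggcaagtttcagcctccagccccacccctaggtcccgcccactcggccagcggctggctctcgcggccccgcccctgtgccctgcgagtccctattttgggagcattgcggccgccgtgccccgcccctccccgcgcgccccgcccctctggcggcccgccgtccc
RAD50: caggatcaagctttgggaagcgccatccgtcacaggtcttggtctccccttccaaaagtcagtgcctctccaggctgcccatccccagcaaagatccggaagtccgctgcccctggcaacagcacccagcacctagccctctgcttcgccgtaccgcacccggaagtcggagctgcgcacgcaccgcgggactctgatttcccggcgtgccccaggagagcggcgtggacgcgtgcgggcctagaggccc
FANCC: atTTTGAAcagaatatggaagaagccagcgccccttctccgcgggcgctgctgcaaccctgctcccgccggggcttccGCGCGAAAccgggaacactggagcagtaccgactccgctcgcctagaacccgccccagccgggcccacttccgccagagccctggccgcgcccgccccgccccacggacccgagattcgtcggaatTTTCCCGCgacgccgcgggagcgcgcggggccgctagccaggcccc
RAD51AP1 and RAD54L each hold the CCAAT box once in this stretch, read on the other strand (ATTGG). BARD1 and RAD50, which moved in opposite directions, hold none of the 3 motifs. FANCC holds 2 words of the E2F motif, bound by factors that drive genes of DNA replication, and 1 of the CHR motif, known from genes of cell division. These words are TTTCCCGC, GCGCGAAA (TTTCGCGC on the other strand) and TTTGAA.

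The search covered 250 bases before to 50 after the start, on both strands, of the 36 members found in the RefSeq table of 27305 genes (FANCI, NBN, RAD54B and WRN were not matched). E2F words (TTTGGCGC, TTTCGCGC, TTTGGCGG, TTTCCCGC, TTTGGCGA) stood in 6 of the 36 members, 16.7%, against 3.65% of all promoters. The 6 were XRCC2, FANCC, FANCD2, EXO1, TOPBP1 and CLSPN, of which FANCC and CLSPN rose in MDA-MB-231, TOPBP1 fell and the other 3 did not pass the test. CHR words (TTTGAA and TTCGAA) stood in 3 members, BRIP1, FANCC and ATM, 8.33% against 16.6%. CCAAT stood in 16 members, 44.4% against 35.7%, among them 6 of the 8 that fell in MDA-MB-231 (RAD51AP1, RAD54L, BRIP1, FANCM, CHEK1, ATRIP), 6 of the 14 that rose and 4 of the 14 that were not called. The calls of BRIP1, FANCM and ATRIP among those that fell, and of XRCC3 among those that rose, were lost in settings given below. No motif word holds another, and a match is a description of these letters only. For 7 members, BRCA1 and RAD50 among them, most coding transcripts in GENCODE start more than 500 bases from the listed start, so other starts of these genes lie outside the window. For RAD50, 2 of 5 coding transcripts start near the listed start, and for FANCC 5 of 8. The stretches printed for RAD50 and FANCC lie inside the annotated spans of these genes.

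The BRCA1 complex and its partners were all called in MDA-MB-231, 3 higher and 2 lower. BRCA1 (ENSG00000012048, chromosome 17, 43044295 to 43170245 in GENCODE 29 on GRCh38, as for all gene positions here), the ubiquitin ligase that starts recombination at a break, lay at 64.8, 62.5, 64.8, 64.6 and 64.8 CPM in the 5 controls and 85.9, 105, 82.7, 88.8 and 90.2 CPM in the 5 MitoQ libraries. The groups did not overlap, with MitoQ replicate 2 the highest, and the rise was 1.43-fold (log2 fold change 0.52 ± 0.0565, adjusted p = 2.61e-07). BARD1 (ENSG00000138376, chromosome 2, 214725646 to 214809711), the partner without which BRCA1 is unstable, lay at 54.1, 53.3, 53.6, 55.4 and 56.3 CPM in controls and 37.3, 44.9, 41.5, 38.6 and 37.5 CPM with MitoQ. Every MitoQ library was below every control, a 1.34-fold fall (log2 fold change -0.43 ± 0.0555, adjusted p = 2.31e-06), so the 2 partners of the heterodimer moved in opposite directions.

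BRCA2 (ENSG00000139618, chromosome 13, 32315474 to 32400266), which loads the recombinase on DNA, ranged more widely, at 91.3, 103, 98.9, 111.6 and 106 CPM in controls and 139.8, 156, 130.2, 118 and 109 CPM with MitoQ. MitoQ replicate 5 fell within the range of the controls, and the rise passed the test (log2 fold change 0.38 ± 0.0876, adjusted p = 0.00183). PALB2 (ENSG00000083093, chromosome 16, 23603160 to 23641310), the bridge between BRCA1 and BRCA2, was at 26.2, 26.4, 26.0, 27.7 and 25.8 CPM in controls and 30.4, 32.5, 31.5, 34.6 and 32.9 CPM with MitoQ, with no overlap (log2 fold change 0.32 ± 0.0518, adjusted p = 3.57e-05). BRIP1, the helicase that binds BRCA1, had a mean of 57.8 ± 4.43 CPM (SD, n = 5) in controls and 51.2 ± 3.78 CPM with MitoQ (log2 fold change -0.15 ± 0.061, adjusted p = 0.0415). Its groups overlapped, and its call was lost with plain library totals and without control 2, 4 or 5 or MitoQ 3, 4 or 5 (adjusted p 0.0595 to 0.251).

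In SKBR3 the same complex held 2 called genes, both higher. BRCA1 lay at 34.0, 35.6 and 30.5 CPM in the 3 controls and 44.4, 42.1 and 39.9 CPM in the 3 MitoQ libraries, without overlap, a 1.26-fold rise (log2 fold change 0.33 ± 0.0713, adjusted p = 0.00341). BRCA2 was at 45.6, 50.9 and 46.0 CPM in controls and 56.4, 55.2 and 55.1 CPM with MitoQ, again without overlap (log2 fold change 0.21 ± 0.0559, adjusted p = 0.0115), and its call was lost in the fit over all 16 libraries (adjusted p 0.148). BARD1, at 61.7, 64.3 and 68.5 CPM in controls and 66.0, 72.2 and 72.9 CPM with MitoQ, overlapped and did not pass the test (log2 fold change 0.09 ± 0.0497, adjusted p = 0.179), though it did without control 3 (adjusted p 0.0414). PALB2 was at 29.3, 30.4 and 31.5 CPM and 31.9, 32.1 and 32.6 CPM (log2 fold change 0.06 ± 0.0559, adjusted p = 0.4664), without overlap and without a call. For BRIP1 the log2 fold change was 0.03 ± 0.0714.

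**Figure D2:**
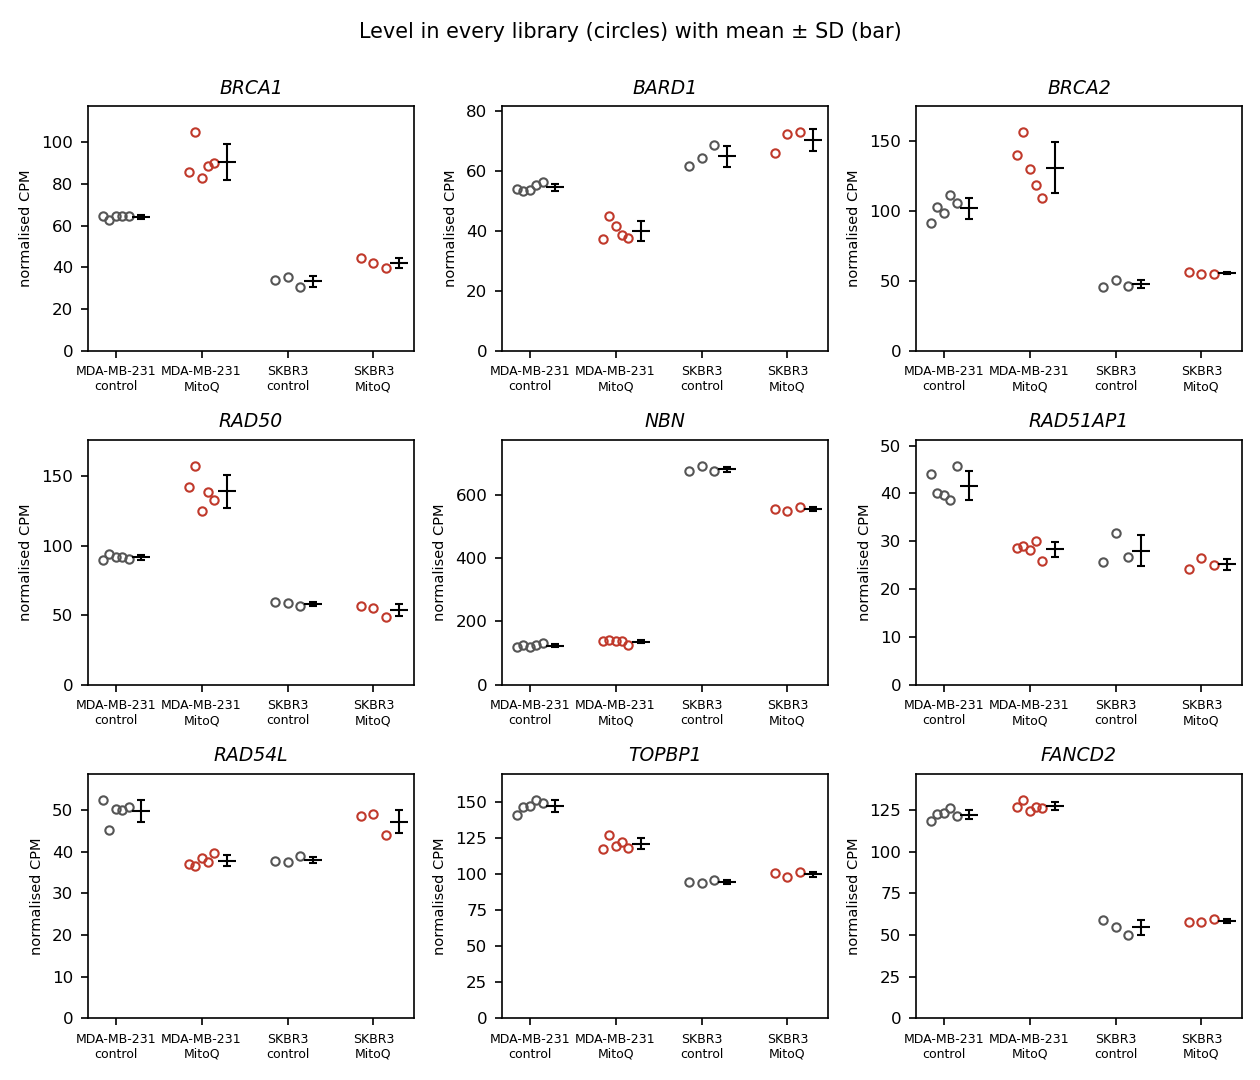
Normalised CPM of 9 genes in every library (circles; grey controls, red MitoQ) with mean and SD as bars, on linear axes that start at 0; there are 5 libraries per group in MDA-MB-231 and 3 in SKBR3. BRCA1 is higher with MitoQ in both lines, BARD1 is lower with MitoQ in MDA-MB-231 (37.3 to 44.9 against 53.3 to 56.3 CPM), and RAD54L moves down in MDA-MB-231 and up in SKBR3.

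Of the 5 recombinase paralogs, which stabilise the recombinase filament, RAD51B, RAD51D and XRCC3 rose in MDA-MB-231, and the other two were not called. The calls of RAD51B and XRCC3 depended on the setting, as given below, and that of RAD51D did not. All 3 partners of the filament fell: RAD51AP1, RAD54L and RAD54B. RAD51AP1 (ENSG00000111247, chromosome 12, 4538798 to 4560048), a DNA-binding protein that helps the filament pair with its target, was at 44.0, 40.1, 39.6, 38.7 and 45.7 CPM in controls and 28.6, 29.05, 28.1, 30.1 and 25.8 CPM with MitoQ. No MitoQ library reached the lowest control, and the fall of 1.45-fold was the largest among the 40 genes (log2 fold change -0.53 ± 0.0604, adjusted p = 4.14e-07).

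RAD54L (ENSG00000085999, chromosome 1, 46247688 to 46278473), the RAD54 translocase that drives strand exchange, was at 52.4, 45.3, 50.3, 50.1 and 50.8 CPM in controls and 37.1, 36.5, 38.6, 37.5 and 39.6 CPM with MitoQ. The groups lay well apart (log2 fold change -0.37 ± 0.0493, adjusted p = 2.74e-06). Of its 31-base stretches 19.9% occur in transcripts of LRRC41, whose mean went from 67.8 to 76.1 CPM, the opposite direction. RAD54B, a related translocase, was at 41.8, 38.7, 39.6, 39.0 and 39.96 CPM in controls and 27.6, 31.8, 31.6, 30.2 and 29.6 CPM with MitoQ, also without overlap (log2 fold change -0.38 ± 0.0527, adjusted p = 5.28e-06), and shares 57.6% of its stretches with other transcripts, mainly FSBP (10.4 to 8.54 CPM).

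Among the paralogs the steps were smaller. RAD51D rose from 27.9 ± 1.01 to 33.0 ± 1.82 CPM (SD, n = 5 each) without overlap (log2 fold change 0.26 ± 0.0548, adjusted p = 0.000396). RAD51B (log2 fold change 0.18 ± 0.0636, adjusted p = 0.0185) overlapped, and its call was lost with no filter on low counts, in the fit over all 16 libraries and without control 2 (adjusted p 0.0566 to 0.0731). XRCC3 (log2 fold change 0.19 ± 0.0726, adjusted p = 0.0338) overlapped too, and its call was lost with no filter on low counts and without control 2, 3, 4 or 5 or MitoQ 2, 4 or 5 (adjusted p 0.0504 to 0.0959). Of the XRCC3 stretches 71.5% occur in other transcripts, mainly KLC1 (189 to 206 CPM), so its share of the counts is uncertain. RAD51C (0.03 ± 0.0515) and XRCC2 (-0.05 ± 0.0715) were not called, and in both the highest MitoQ level was that of replicate 2. Without that library XRCC2 was lower (log2 -0.13, adjusted p 0.0319).

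In SKBR3, RAD54L was the only called gene of these 8, and it moved the other way. Its level was 37.9, 37.5 and 38.9 CPM in controls and 48.5, 49.1 and 44.1 CPM with MitoQ, a 1.22-fold rise without overlap (log2 fold change 0.29 ± 0.0579, adjusted p = 0.00191), while LRRC41 was at 69.3 and 71.8 CPM. RAD51AP1, at 25.6, 31.8 and 26.7 CPM in controls and 24.1, 26.4 and 25.1 CPM with MitoQ, did not pass the test (log2 fold change -0.16 ± 0.08, adjusted p = 0.156). RAD54B was low in this line, at 5.85, 5.13 and 5.72 CPM and 4.39, 5.62 and 6.63 CPM, and overlapped (log2 fold change -0.04 ± 0.146, adjusted p = 0.893). The other 5 had log2 fold changes from -0.15 (RAD51C) to 0.16 (RAD51D).

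The Fanconi core complex, the ubiquitin ligase of the pathway, and its anchor FANCM held few calls in MDA-MB-231. FANCC and FANCE rose, FANCM fell, and FANCA, FANCB, FANCF, FANCG and FANCL were not called. FANCC, which pairs with FANCE in the complex, was at 28.8, 28.8, 30.2, 31.4 and 29.2 CPM in controls and 35.2, 41.3, 37.1, 37.9 and 34.6 CPM with MitoQ, without overlap (log2 fold change 0.35 ± 0.0576, adjusted p = 3.79e-05). FANCE, which binds FANCD2, was at 35.9, 35.1, 37.3, 36.1 and 34.6 CPM and 38.6, 43.3, 39.0, 43.5 and 44.6 CPM, also without overlap (log2 fold change 0.25 ± 0.0535, adjusted p = 0.000603). FANCM, the translocase that carries the core to damaged DNA, was at 31.6, 35.9, 35.4, 39.3 and 38.5 CPM and 31.8, 36.1, 31.9, 28.4 and 25.1 CPM, and the groups overlapped. Its fall (log2 fold change -0.21 ± 0.0852, adjusted p = 0.0398) was lost with plain library totals and without control 2, 3, 4 or 5 or MitoQ 3, 4 or 5 (adjusted p 0.0515 to 0.161).

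FANCA (ENSG00000187741, chromosome 16, 89737549 to 89816657), the gene most often mutated in Fanconi anaemia, was at 80.7, 75.5, 78.2, 81.3 and 82.5 CPM in MDA-MB-231 controls and 81.5, 87.3, 74.8, 80.5 and 87.9 CPM with MitoQ, an overlap with no call (log2 fold change 0.07 ± 0.0492, adjusted p = 0.222). With plain library totals it was higher (log2 0.13, adjusted p 0.034). In SKBR3 it was at 27.6, 29.9 and 29.1 CPM in controls and 36.6, 34.4 and 34.8 CPM with MitoQ, where the groups did not overlap (log2 fold change 0.27 ± 0.0605, adjusted p = 0.00437). Of its stretches 21.2% occur elsewhere, mainly in ZNF276, at 32.7 and 33.7 CPM in these 2 groups.

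FANCG, which binds FANCA, was at 49.1, 42.8, 44.1, 40.6 and 41.0 CPM in MDA-MB-231 controls and 36.2, 43.7, 39.6, 39.2 and 41.9 CPM with MitoQ, with overlap and no call (log2 fold change -0.09 ± 0.0629, adjusted p = 0.21). With limma it was lower there (log2 -0.14, adjusted p 0.035). In SKBR3 it was at 30.3, 27.4 and 29.1 CPM and 30.9, 33.8 and 35.0 CPM, a small rise without overlap (log2 fold change 0.18 ± 0.0618, adjusted p = 0.0456). That call was lost with DESeq2, in the fit over all 16 libraries and without control 2 or 3 or MitoQ 2 or 3 (adjusted p 0.0519 to 0.147).

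FANCM fell in SKBR3 as it did in MDA-MB-231. It was at 38.9, 42.2 and 39.6 CPM in controls and 35.1, 36.5 and 32.5 CPM with MitoQ, without overlap (log2 fold change -0.23 ± 0.0627, adjusted p = 0.0146), and the call was lost in the fit over all 16 libraries and without control 2 or MitoQ 3 (adjusted p 0.0686 to 0.162). The remaining 5 of this group were not called in SKBR3. FANCC was at 23.1, 23.97 and 26.3 CPM and 25.6, 25.2 and 24.6 CPM, FANCE at 11.4, 8.06 and 8.80 CPM and 9.84, 10.2 and 9.48 CPM, and FANCF at 9.43, 12.3 and 12.1 CPM and 11.3, 11.7 and 12.9 CPM, in controls and with MitoQ. The last, an adaptor of the complex, was the lowest of the 40 genes in MDA-MB-231, at 2.83, 2.68, 2.83, 3.14 and 3.50 CPM in controls and 3.59, 3.43, 2.60, 2.65 and 2.21 CPM with MitoQ.

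The FANCD2-FANCI pair, the clamp that the core complex marks, changed in 1 member and 1 line. FANCD2 (ENSG00000144554, chromosome 3, 10026414 to 10101930) was at 119, 123, 123, 126 and 122 CPM in MDA-MB-231 controls and 127, 131, 125, 127 and 127 CPM with MitoQ. The groups overlapped narrowly and the gene was not called (log2 fold change 0.08 ± 0.0397, adjusted p = 0.0981), although it was with plain library totals (log2 0.14, adjusted p 0.00565). In SKBR3 it was at 59.2, 54.9 and 50.2 CPM and 57.7, 58.2 and 59.9 CPM (log2 fold change 0.08 ± 0.0602, adjusted p = 0.359). FANCI rose in MDA-MB-231, from 148 ± 4.35 to 173 ± 9.45 CPM (SD, n = 5 each) without overlap (log2 fold change 0.25 ± 0.0461, adjusted p = 0.000126), and had a log2 fold change of 0.00057 ± 0.0379 in SKBR3.

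End resection genes, which trim the broken ends and unwind them, held 5 rises among 7 genes in MDA-MB-231, and the other two were not called. RAD50 (ENSG00000113522, chromosome 5, 132556019 to 132646344), the ATPase that tethers broken ends, rose most of all 40 genes. It was at 90.0, 94.4, 92.0, 92.2 and 90.1 CPM in controls and 142.1, 157, 125, 139 and 133 CPM with MitoQ, and the lowest MitoQ library lay above the highest control by more than the whole range of the controls (log2 fold change 0.63 ± 0.055, adjusted p = 1.31e-08). Of its 31-base stretches 78.6% occur in other annotated transcripts, nearly all in the overlapping gene model AC116366.3, whose mean went from 11.3 to 17.4 CPM, so the counts of this locus could be divided between both.

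NBN, the subunit that recruits ATM, was at 118, 124, 118, 126 and 131 CPM in MDA-MB-231 controls and 139, 139, 137, 137 and 126 CPM with MitoQ. MitoQ replicate 5 fell among the controls and the other 4 lay above them (log2 fold change 0.16 ± 0.0457, adjusted p = 0.00516). RBBP8, the CtIP protein that switches resection on, was at 94.6, 97.8, 97.1, 97.0 and 98.5 CPM and 111, 141, 115, 125 and 123 CPM, without overlap (log2 fold change 0.37 ± 0.056, adjusted p = 1.55e-05). WRN, the Werner syndrome helicase, was at 40.7, 42.4, 38.6, 45.6 and 42.3 CPM and 49.7, 58.4, 51.2, 50.6 and 47.8 CPM, again without overlap (log2 fold change 0.32 ± 0.0602, adjusted p = 0.000142). BLM, the Bloom syndrome helicase, rose less (log2 fold change 0.18 ± 0.0606, adjusted p = 0.0139). MRE11 (-0.09 ± 0.0528) and EXO1 (-0.05 ± 0.058), both nucleases, were not called, so the 3 subunits of the MRE11 complex were called in 2 cases, both higher. Without MitoQ replicate 2, MRE11 was lower (log2 -0.12, adjusted p 0.0339), as it was with limma (adjusted p 0.0325).

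In SKBR3 the only called gene of this group was NBN, and it fell. Controls were at 676, 691 and 676 CPM and MitoQ libraries at 555, 548 and 562 CPM. The gap between the groups was far wider than the range within either group, and the fall had the smallest adjusted p of the 40 genes in this line (log2 fold change -0.32 ± 0.0362, adjusted p = 3.06e-05). RAD50 was at 59.2, 59.0 and 56.4 CPM in controls and 56.7, 55.1 and 48.9 CPM with MitoQ (log2 fold change -0.13 ± 0.0618, adjusted p = 0.123), RBBP8 at 42.3, 39.1 and 41.9 CPM and 38.7, 40.3 and 41.9 CPM (log2 fold change -0.05 ± 0.0533, adjusted p = 0.502), and WRN at 38.0, 39.4 and 39.3 CPM and 39.8, 38.9 and 37.2 CPM (log2 fold change -0.03 ± 0.0555, adjusted p = 0.752). Those 3, which rose in MDA-MB-231, overlapped here. The gene model AC116366.3, which shares sequence with RAD50, had means of 7.87 CPM in SKBR3 controls and 9.66 CPM with MitoQ. Whether counts were traded between it and RAD50 was not tested. BLM was higher in every MitoQ library without passing the test (log2 fold change 0.15 ± 0.0567, adjusted p = 0.0585), and passed it with plain library totals (adjusted p 0.0423) and with a filter at 1 CPM (adjusted p 0.0488). EXO1 passed only without control 3 (log2 -0.18, adjusted p 0.0205).

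Checkpoint genes, which signal damage and stalled forks, moved both ways in MDA-MB-231: ATM and CLSPN rose, TOPBP1, CHEK1 and ATRIP fell. ATM (ENSG00000149311, chromosome 11, 108222484 to 108369102), the kinase that answers double-strand breaks, was at 112.3, 113, 109, 126 and 119 CPM in controls and 147, 155, 137, 129 and 123 CPM with MitoQ. MitoQ replicate 5 was below control 4, and the other 4 lay above every control (log2 fold change 0.28 ± 0.0608, adjusted p = 0.000604). TOPBP1, the activator of the ATR kinase, was at 141, 147, 148, 152 and 149.7 CPM and 118, 127, 119.8, 123 and 118 CPM, with every MitoQ library below every control (log2 fold change -0.26 ± 0.0413, adjusted p = 2.33e-05).

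CHEK1, the kinase below ATR, fell from 64.1 ± 1.92 to 54.6 ± 4.48 CPM (SD, n = 5 each) without overlap (log2 fold change -0.21 ± 0.0557, adjusted p = 0.00355). CLSPN, the adaptor between ATR and CHEK1, went the other way, from 204 ± 6.86 to 229 ± 18.2 CPM with overlap (log2 fold change 0.19 ± 0.0539, adjusted p = 0.00539). ATRIP, the binding partner of ATR, was called lower (log2 fold change -0.18 ± 0.073, adjusted p = 0.0443), and that call was lost with plain library totals and without control 2, 3, 4 or 5 or MitoQ 1, 2, 3 or 4 (adjusted p 0.0588 to 0.173). Of its stretches 26.6% occur elsewhere, mainly in TREX1 (3.34 to 3.04 CPM). ATR itself had a log2 fold change of -0.00237 ± 0.0539, and CHEK2, the kinase below ATM, was at 14.98, 15.2, 13.4, 14.1 and 15.1 CPM in controls and 13.2, 14.0, 14.0, 12.0 and 13.0 CPM with MitoQ, without a call (log2 fold change -0.12 ± 0.0686, adjusted p = 0.152). Sequence shared with other genes took 16.9% of the stretches of ATR and 21.0% of those of CHEK2. In all, 15 of the 40 genes shared over 10%.

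ATM was the only checkpoint gene called in SKBR3, and it was lower there. It was at 103, 102 and 91.7 CPM in controls and 89.3, 89.9 and 84.1 CPM with MitoQ, without overlap (log2 fold change -0.19 ± 0.0555, adjusted p = 0.0207). This small fall lost its call in the fit over all 16 libraries and without control 1 or 2 or MitoQ 2 or 3 (adjusted p 0.0711 to 0.125). TOPBP1 was at 94.4, 93.8 and 96.2 CPM and 101, 98.1 and 101 CPM, higher in every MitoQ library yet not past the test (log2 fold change 0.06 ± 0.0392, adjusted p = 0.318). CHEK2 was at 29.4, 27.4 and 26.7 CPM and 27.7, 26.0 and 26.8 CPM (log2 fold change -0.07 ± 0.0647, adjusted p = 0.458), and the other 4 had log2 fold changes from -0.06 (ATR) to 0.10 (ATRIP).

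Of the structure-specific nucleases, which cut branched DNA late in repair, MUS81 was higher in both lines. In MDA-MB-231 this catalytic subunit was at 60.2, 56.6, 58.6, 57.6 and 56.4 CPM in controls and 67.6, 62.5, 68.2, 70.3 and 75.5 CPM with MitoQ, without overlap (log2 fold change 0.27 ± 0.0485, adjusted p = 8.9e-05). In SKBR3 it was at 31.4, 27.4 and 32.5 CPM and 34.2, 35.2 and 36.2 CPM, again without overlap (log2 fold change 0.18 ± 0.0631, adjusted p = 0.046), a call lost with DESeq2, in the fit over all 16 libraries and without control 1 or 2 or MitoQ 1, 2 or 3 (adjusted p 0.0545 to 0.124). Its partner EME1 was at 14.5, 14.5, 14.6, 15.1 and 13.1 CPM and 15.1, 15.4, 15.3, 15.5 and 16.5 CPM in MDA-MB-231 (log2 fold change 0.14 ± 0.062, adjusted p = 0.0659) and at 4.77, 3.40 and 3.66 CPM and 4.24, 3.77 and 4.04 CPM in SKBR3 (log2 fold change 0.01 ± 0.158, adjusted p = 0.986). The groups overlapped in both lines. The MDA-MB-231 difference passed the test with plain library totals (adjusted p 0.00967) and without MitoQ replicate 2 (adjusted p 0.0488). Of the MUS81 stretches 11.5% occur elsewhere, mainly in CFL1, which went from 1400.3 to 1133 CPM in MDA-MB-231, opposite to MUS81. Of the EME1 stretches 13.3% occur in LRRC59, which went from 260.2 to 178 CPM there. SLX4, the scaffold of these nucleases, was not called in either line (-0.06 and 0.08).

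Across the lines, 7 genes were called in both. They were 26.9% of the 26 called in MDA-MB-231 and 77.8% of the 9 called in SKBR3. Of all genes tested, 57.5% were called in MDA-MB-231 and 28% in SKBR3. The share of all genes called in both was not counted, so the 7 are not read as a shared response. Of the 7 genes, 4 moved the same way (BRCA1, BRCA2 and MUS81 higher, FANCM lower) and 3 opposite ways (RAD54L, NBN and ATM). In SKBR3 the calls of BRCA2, MUS81, FANCM and ATM were lost in the fit over all 16 libraries (adjusted p 0.0545 to 0.162). That of FANCM in MDA-MB-231 was lost in the settings given above. A further 19 genes were called in MDA-MB-231 alone, 2 in SKBR3 alone (FANCA and FANCG) and 12 in neither. A call in 1 line and not in the other does not show a difference, so the difference of the effects was tested over all 16 libraries as SKBR3 minus MDA-MB-231.

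That test called 16 of the 40 genes, 8 in each direction, or 40% against 34.1% of all 17094 genes tested (lower 14.9%, higher 19.1%). The MitoQ effect was lower in SKBR3 for genes of end resection in 4 of 7 cases: RAD50 (-0.72 ± 0.0863, adjusted p = 5.79e-07), NBN (-0.44 ± 0.0625, adjusted p = 7.23e-06), RBBP8 (-0.38 ± 0.088, adjusted p = 0.00159) and WRN (-0.31 ± 0.0895, adjusted p = 0.00916). It was also lower for ATM (-0.43 ± 0.0926, adjusted p = 0.000806), FANCC (-0.29 ± 0.0916), PALB2 (-0.21 ± 0.0788) and FANCI (-0.21 ± 0.066). The counts of RAD50 could be divided with AC116366.3 in both lines, as given above. The 3 strand-exchange partners had a higher effect in SKBR3, RAD54L by 0.71 ± 0.0785 (adjusted p = 1.85e-07), RAD51AP1 by 0.41 ± 0.105 (adjusted p = 0.00346) and RAD54B by 0.38 ± 0.135 (adjusted p = 0.0304).

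BARD1 (0.57 ± 0.0838, adjusted p = 1.08e-05), TOPBP1 (0.36 ± 0.0591, adjusted p = 3.74e-05), ATRIP (0.32 ± 0.122), FANCG (0.31 ± 0.1) and FANCA (0.24 ± 0.0808) also had a higher effect in SKBR3. For BRCA1 the difference between the lines was -0.15 ± 0.0944 (adjusted p = 0.255), and for BRCA2 -0.13 ± 0.128 (adjusted p = 0.486), neither past the test. Plain library totals left 9 lower and 4 higher, with the share of higher genes among all called moving from 56.1% to 41.6%. The calls of RAD54B, FANCA, FANCG and ATRIP were lost with those totals (adjusted p 0.0803 to 0.209), and without SKBR3 control 3 only 5 genes were called lower.

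Some of the smaller differences lay near the threshold, and their calls changed when a library was left out or the setting was changed. The call of ATRIP was lost with DESeq2's size factors, with plain library totals, with DESeq2, with no filter on low counts, with a filter at 1 CPM and without MDA-MB-231 control 2, 3, 4 or 5 or MDA-MB-231 MitoQ 1 or 3 or SKBR3 control 1 or 2 or SKBR3 MitoQ 1 or 2 (adjusted p 0.0518 to 0.15). That of PALB2 was lost with no filter on low counts and without MDA-MB-231 control 1, 2, 3 or 5 or MDA-MB-231 MitoQ 4 or 5 or SKBR3 control 2 or 3 or SKBR3 MitoQ 1, 2 or 3 (adjusted p 0.0517 to 0.139). RAD54B lost its call with plain library totals and without SKBR3 control 2 or SKBR3 MitoQ 2 or 3 (adjusted p 0.0756 to 0.166), and FANCI with no filter on low counts and without SKBR3 control 3 or SKBR3 MitoQ 1 (adjusted p 0.0519 to 0.0769). FANCA lost it with plain library totals and without SKBR3 control 1 or SKBR3 MitoQ 1 (adjusted p 0.0737 to 0.209), FANCG with plain library totals and without SKBR3 MitoQ 3 (adjusted p 0.0581 to 0.0803), and FANCC without SKBR3 control 3 (adjusted p 0.0949). RAD50, NBN, ATM, RBBP8, WRN, RAD54L, BARD1, RAD51AP1 and TOPBP1 kept their call with each library left out. Calls were gained too. Without MDA-MB-231 MitoQ 2, XRCC2 (0.33, adjusted p 0.00193), BRIP1 (0.27, 0.0268) and CHEK1 (0.24, 0.0161) had a higher effect in SKBR3. With limma the same genes were called (adjusted p 0.0104 to 0.0472). CHEK1 was also called without MDA-MB-231 MitoQ 3 (0.0451) and SLX4 without MDA-MB-231 MitoQ 5 (0.047), both higher. CLSPN was called lower with plain library totals (-0.23, adjusted p 0.0352).

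The control libraries of the 2 lines differed in nearly all of these genes. Between the controls 38 of 40 were called, 95% against 86.5% of all 16398 genes, and WRN and ATR were not. SKBR3 was lower in 31 members, 77.5% against 44.4% of all genes, and higher in 7, 17.5% against 42%. The members' median difference, SKBR3 minus MDA-MB-231, was -0.49, against -0.02 over all genes, and 13 lower and 2 higher members passed 2-fold. Groups did not overlap in 37 members, 31 lower and 6 higher, against 83% of all genes (43.5% lower, 39.4% higher). All 8 paralogs and partners and all 3 structure-specific nucleases were lower in SKBR3.

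The widest gaps were in both directions. RAD54B was 7.02-fold lower in SKBR3 controls (5.57 ± 0.386 CPM, SD, n = 3) than in MDA-MB-231 controls (39.8 ± 1.21 CPM, n = 5; log2 fold change -2.81 ± 0.0738, adjusted p = 3.53e-19). FANCE (-1.91 ± 0.0831) and EME1 (-1.85 ± 0.109) followed. NBN was 5.59-fold higher in SKBR3, at 681 ± 8.68 against 123 ± 5.24 CPM (log2 fold change 2.48 ± 0.0396, adjusted p = 6.58e-23). FANCF was higher by 1.93 ± 0.125 and CHEK2 by 0.95 ± 0.0659.

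BARD1 (0.27 ± 0.047), PALB2 (0.22 ± 0.0561), MRE11 (0.38 ± 0.0509) and FANCM (0.17 ± 0.0649) were slightly higher in SKBR3, and the call of FANCM was lost with no filter on low counts, in the fit over all 16 libraries and without SKBR3 control 2 (adjusted p 0.103 to 0.111). BRCA1 (-0.94 ± 0.054), BRCA2 (-1.09 ± 0.061), FANCA (-1.45 ± 0.0516) and FANCD2 (-1.15 ± 0.0503) were lower, and ATM by less (-0.21 ± 0.0514). For comparison, the MitoQ libraries of SKBR3, at 44.4, 42.1 and 39.9 CPM for BRCA1, stayed below the MDA-MB-231 controls (62.5 to 64.8 CPM). For RAD54L, which was higher in MDA-MB-231 among controls, the order of the lines was reversed among MitoQ libraries, with 36.5 to 39.6 CPM in MDA-MB-231 and 44.1 to 49.1 CPM in SKBR3.

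**Figure D3:**
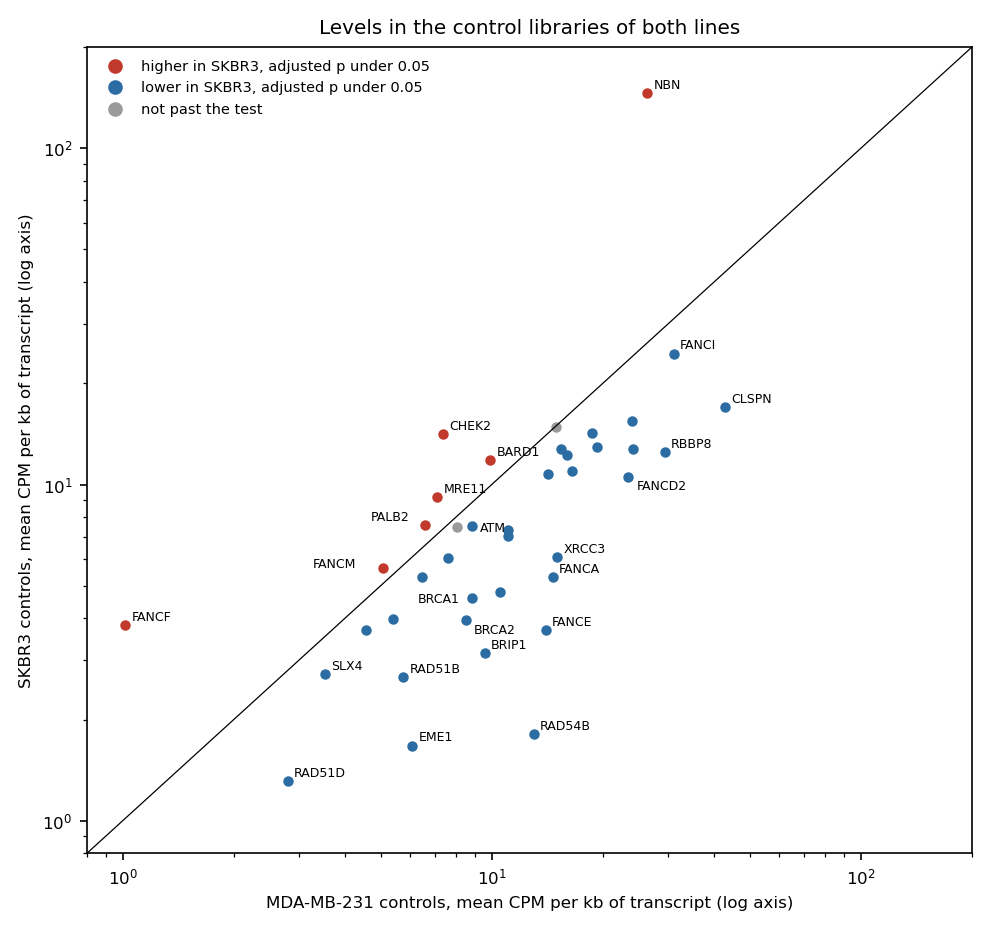
Mean level of each of the 40 genes in the controls of MDA-MB-231 (horizontal, 5 libraries) and SKBR3 (vertical, 3 libraries), as CPM per kb of the longest coding transcript on log axes; the line marks equal levels, colour the test between the lines, and names are given for 23 genes. Most points lie below the line, NBN lies far above it (681 against 123 CPM before scaling by length), and RAD54B and EME1 lie far below it.

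Per kb of the longest coding transcript, a scale on which genes can be compared, the highest level in MDA-MB-231 controls was that of CLSPN (42.8 ± 1.44 CPM per kb) and the lowest that of FANCF (1.02 ± 0.111 CPM per kb). In SKBR3 controls NBN was highest (146 ± 1.86 CPM per kb) and RAD51D lowest (1.31 ± 0.0771 CPM per kb). BRCA1 stood at 8.84 ± 0.138 and 4.58 ± 0.359 CPM per kb in the 2 lines, and BARD1 at 9.92 ± 0.229 and 11.8 ± 0.624 CPM per kb. BARD1 was thus the higher of the 2 partners per kb among the controls of both lines. Among MitoQ libraries the order was reversed in MDA-MB-231, with BRCA1 at 12.4 ± 1.17 and BARD1 at 7.27 ± 0.587 CPM per kb, and kept in SKBR3, with 5.80 ± 0.312 and 12.8 ± 0.689 CPM per kb. These orders depend on the transcript taken as the length: RAD51D has a longest coding transcript of 9.99 kb, and before scaling its level in SKBR3 controls (13.1 ± 0.77 CPM) was above those of RAD51B, RAD54B and EME1.

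Other genes of recombination and crosslink repair, from a list of 66, moved in both directions. In MDA-MB-231, 21 were higher (31.8% against 29.9% of all genes) and 19 lower (28.8% against 27.6%), with a median log2 of 0.02. In SKBR3 7 were higher (10.6% against 13.8%) and 10 lower (15.2% against 14.1%), with a median of -0.05. These shares lay near those of all genes. UBE2T, the ubiquitin carrier of the Fanconi core complex, fell in MDA-MB-231 (64.7 to 35.3 CPM, log2 -0.85, adjusted p = 6.39e-11), as did PARPBP (34.9 to 22.9 CPM, log2 -0.58, adjusted p = 8.09e-07), which restrains recombination, and UIMC1 (39.4 to 27.4 CPM, log2 -0.50, adjusted p = 3.79e-07), which brings BRCA1 to ubiquitin. TIMELESS (62.5 to 89.5 CPM, log2 0.54, adjusted p = 1.96e-08), a fork protection protein, FAN1 (48.0 to 68.2 CPM, log2 0.53, adjusted p = 4.67e-08), the Fanconi-associated nuclease, and RECQL5 (23.2 to 32.5 CPM, log2 0.51, adjusted p = 3.68e-07), a helicase, rose. In SKBR3 the fork remodeller HLTF (-0.21), FIGNL1 (-0.21) and WDR48 (-0.19), a cofactor of the enzyme that removes ubiquitin from FANCD2, were lower. The histone gene H2AFX (0.40), SLX1B (0.20), whose reads cannot be told from those of its near-identical copy, and RAD9A (0.26) were higher there.

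The end-joining list, the other main route of break repair, gave 8 falls and 4 rises of 15 in MDA-MB-231 (median -0.14). In SKBR3 it gave 4 falls and 1 rise of 14 (median -0.04). In MDA-MB-231 53.3% were lower and 26.7% higher, against 27.6% and 29.9% of all genes. In SKBR3 the shares were 28.6% and 7.14%, against 14.1% and 13.8%. XRCC6 and XRCC5, the Ku subunits that bind broken ends, fell in both lines, with log2 fold changes of -0.52 and -0.24 for XRCC6 and -0.21 and -0.23 for XRCC5 (MDA-MB-231 first). DCLRE1C, the Artemis nuclease, fell in MDA-MB-231 (-0.45), where APLF (0.57), POLL (0.34) and XRCC1 (0.30) rose. PARP1, which senses broken strands, was lower in both lines (-0.18 and -0.16).

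Genes of the cell cycle are given beside these, since many repair genes are transcribed with them. Of 29 genes of G2 and mitosis, all 29 fell in MDA-MB-231, with a median of -1.06, led by KIF20A (159 to 35.1 CPM, log2 -2.15, adjusted p = 4.42e-17), AURKA (-1.73) and CCNB1 (-1.64). In SKBR3 4 fell and 1 rose, with a median of -0.03: CENPE (-0.24), CCNB1 (-0.22) and CCNA2 (-0.21) were among the lower, and UBE2C (0.24) was the higher. Of 30 E2F and replication genes, 15 fell and 3 rose in MDA-MB-231 (median -0.14), with E2F8 (-0.67), GINS2 (-0.60) and GINS1 (-0.53) lower and E2F7 (0.76), E2F1 (0.16) and RFC4 (0.14) higher. In SKBR3 6 rose and the other 24 were not called (median 0.05), among them CDT1 (0.42), E2F2 (0.30) and MCM2 (0.24). Beside these counts, 27.6% of all genes were lower and 29.9% higher in MDA-MB-231, and 14.1% lower and 13.8% higher in SKBR3. The part of these cell cycle changes in those of the 40 repair genes was not tested.

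**Figure D4:**
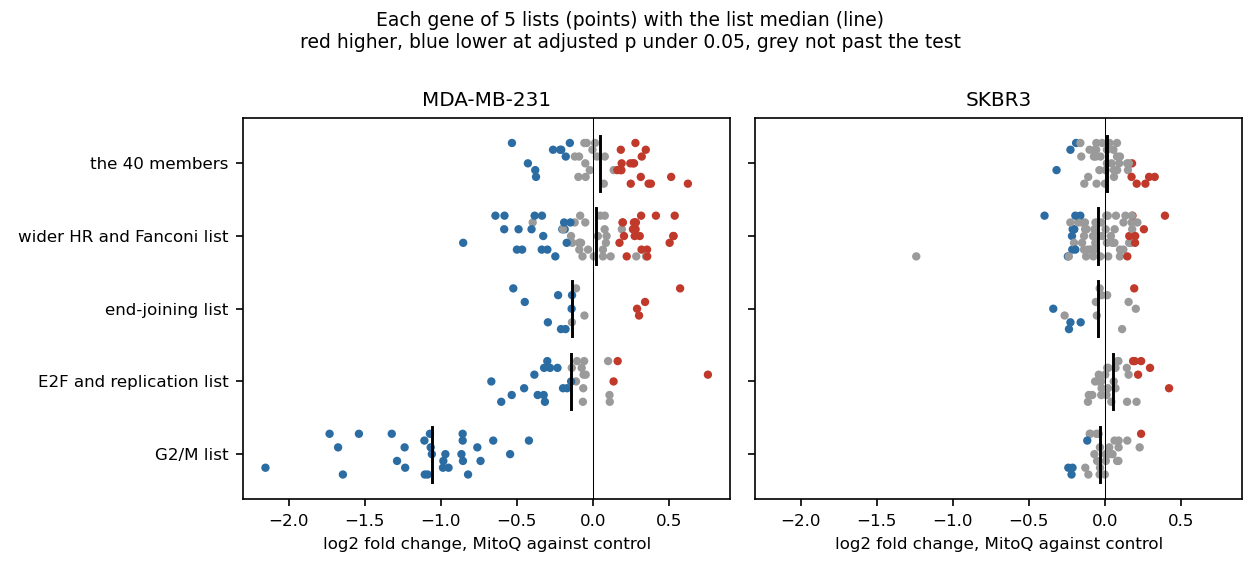
Log2 fold change with MitoQ of each gene (points) of the 40 repair genes and 4 other lists in MDA-MB-231 (left) and SKBR3 (right), on the same horizontal scale, with black lines at the list medians and colour for an adjusted p under 0.05; vertical scatter only separates points. All 29 genes of the G2 and mitosis list lie below 0 in MDA-MB-231 (median -1.06), while the 40 repair genes lie on both sides (median 0.05); the grey point near -1.24 in SKBR3 is RAD17, which did not pass the test.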

How the data were processed

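RNA of 16 libraries was sequenced. The authors deposited estimated counts per gene as whole numbers, made with Salmon and GRCh38 per the submitters' processing notes, which also name edgeR. Their versions, the annotation release, the use of strand and the filters are not given in the sources used here. Salmon divides reads between transcripts that share sequence, so genes that overlap others can trade counts. The sharing was measured as 31-base stretches of a gene's GENCODE 29 transcripts that occur, on either strand, in transcripts of another gene.

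The table held 35106 genes, 8866 of them without a count, and the 40 members were found by symbol. Genes were filtered with edgeR's filterByExpr, scaled by TMM within each comparison, and tested by the robust quasi-likelihood test (edgeR 4.0.16 in R 4.3.3) its p-values adjusted by Benjamini-Hochberg, with calls under 0.05. The fits were MitoQ against control in each line, the difference of both effects over all 16 libraries, and the controls of the lines against each other. SE is the size of the log2 fold change divided by the square root of F. Printed levels use 1 scaling over all libraries, so the ratio of 2 means can differ slightly from the fitted fold change.

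The members and gene lists were chosen with earlier results of these data known. Per-library values are given, by rule, for the called members with the largest changes in each comparison, those with the smallest p for the difference between lines, and BRCA1, BRCA2, PALB2, FANCA, FANCD2 and ATM. From each other list the rule took up to 3 genes per direction and line with the smallest p. DESeq2 1.42.0, limma 3.58.1, other scalings and filters, the replicate block, 1 fit over all libraries and leaving out each library were the alternatives. No pair of libraries held identical values. The labels do not say whether replicate numbers pair libraries, and the main fits were unpaired. Same-numbered libraries had correlations of -0.098 to 0.067 in their deviations from the group means. The testing step was checked on simulated counts. KIF23 of the mitosis list was not analysed here. The values of 1 gene are not reported here. Where the text lists the settings under which a call was lost, the replicate block is not among them and stands in the closing section.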

Additional observations from a re-analysis of the deposited data

Results flagged for a closer look

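In 4 of the 80 groups of 5 libraries, 1 library lay far from the other 4, and chance gives about 1 in 20 such groups. BRCA1 was at 62.5 CPM in MDA-MB-231 control 2, where the next lowest control was at 64.6 CPM. RAD51C was at 29.05 CPM in MDA-MB-231 MitoQ 2, with the next highest at 27.2 CPM, and XRCC2 at 50.8 CPM in the same library, with the next at 40.3 CPM. NBN was at 126 CPM in MDA-MB-231 MitoQ 5, below the next lowest MitoQ library at 137 CPM.

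The MitoQ effect differed between the lines in 16 genes by edgeR's test of the difference (SKBR3 minus MDA-MB-231, log2). It was lower in SKBR3 for RAD50 (-0.72), NBN (-0.44), ATM (-0.43), RBBP8 (-0.38), WRN (-0.31), FANCC (-0.29), PALB2 (-0.21) and FANCI (-0.21). It was higher in SKBR3 for RAD54L (0.71), BARD1 (0.57), RAD51AP1 (0.41), RAD54B (0.38), TOPBP1 (0.36), ATRIP (0.32), FANCG (0.31) and FANCA (0.24). NBN, ATM and RAD54L passed the test in both lines with opposite signs. The call of ATM in SKBR3 was lost in the fit over all 16 libraries (adjusted p 0.124) and without control 1 or 2 or MitoQ 2 or 3.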

How the results depend on the processing

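Depth and replicate number limit the precision: FANCF in MDA-MB-231 and EME1, RAD54B and RAD51B in SKBR3 had means under 7 CPM, and SKBR3 had 3 libraries a group. No value for a member reversed a called direction under any of the alternatives run. In MDA-MB-231, leaving out 1 library left 368 of 400 gene values on the same side of the threshold, and the other settings 306 of 320. In SKBR3 these were 223 of 240 and 310 of 320, for the difference between lines 605 of 640 and 265 of 280, and between controls 319 of 320 and 317 of 320.

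With plain library totals the MDA-MB-231 median was 0.11, with 6 lower and 20 higher members, and the share of higher genes among all genes called went from 51.9% to 60.5%. Leaving out 1 library gave 6 to 10 lower, 15 to 17 higher and a median of 0.035 to 0.064. In SKBR3 the fit over all 16 libraries gave 1 lower, 3 higher and a median of 0.035, with 2788 genes called in place of 4202 and a higher share of 61.7% in place of 49.4%, and without MitoQ 2 there were 2565. Leaving out 1 library gave 1 to 4 lower, 4 to 6 higher and a median of 0.0033 to 0.033. For the difference between lines, plain totals gave 4 higher and a median of -0.097, and leaving out 1 library 5 to 8 lower, 6 to 11 higher and a median of -0.033 to 0.052. Between controls the median was -0.55 with no filter, -0.41 with a filter at 1 CPM and -0.51 to -0.45 leaving out 1 library. The cause was not tested. DESeq2 gave 9 lower and 17 higher in MDA-MB-231, and limma 11 and 17.

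The replicate block, a pairing that the labels do not state, gave 7 lower and 16 higher in MDA-MB-231 and 4 and 6 in SKBR3. It gave 7 and 8 for the difference between lines, and a median of -0.44 between controls. With the block BRIP1 (adjusted p 0.0662), XRCC3 (0.0601) and FANCM (0.0516) in MDA-MB-231 and the difference for PALB2 (0.0718) were not called, and RAD50 was in SKBR3 (0.0331). Over all genes it called 8363 in place of 8805 in MDA-MB-231 and 4758 in place of 4202 in SKBR3. Controls 1, 2, 3, 4 and 5 of MDA-MB-231 correlated best with MitoQ libraries 5, 4, 5, 1 and 2. Controls 1, 2 and 3 of SKBR3 correlated best with MitoQ libraries 3, 1 and 3.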
